A study of Gallus gallus with 6 samples.

Results

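Ion channels, the pumps that build the gradients they use, and receptors for neurotransmitters and extracellular nucleotides were followed in lymphocytes of the chicken bursa at embryonic day 19 (ED19) and embryonic day 16 (ED16). The 111 genes described here were chosen by symbol, from channel, pump and receptor families, among the genes the authors listed as differing between these stages. The count table holds 19219 genes, of which 8469 were listed by the authors and 7173 of those carry a symbol. Every member was therefore selected on a difference between the same 6 libraries, and the differences below are given as a description with no test. Of the 111 members, 108 belong to the channel, receptor and pump families, with their accessory subunits and calcium sensors counted in. The other 3 matched by name but belong to other protein families.

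Ion channels open a pore through a membrane when a voltage, a bound ligand, a stretch or an emptied calcium store calls for it, and the ion then runs down the gradient that the pumps maintain. In lymphocytes the antigen receptor releases calcium from the endoplasmic reticulum, STIM proteins sense the emptied store and open calcium channels in the plasma membrane, and potassium channels keep the membrane negative enough for calcium to go on entering. ATP-gated P2X channels and the magnesium-passing channel TRPM7 are also known from lymphocytes, whereas glutamate, GABA and nicotinic acetylcholine receptors are best known from neurons, and most connexins and aquaporins from epithelia, glia and vessels. The members listed as known from lymphocytes or gene clusters went both ways, and that list was made with earlier results of these data known. TRPM7 and P2RX7 among them were higher at ED19, while TRPM2, PIEZO1 and P2RY13 were lower.

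The ED19 group and the ED16 group were each 3 libraries (ED19_4, ED19_5 and ED19_6, against ED16_1, ED16_2 and ED16_3) from embryos of the Hy-Line W-36 layer line. The labels name no treatment. Each library was made from its own pool of bursas, so that a library stands for many embryos and not for 1 animal. Lymphocytes were isolated on a density gradient, which also removed dead cells. No sorting for B cells is described, and poly-A RNA was sequenced. The labels call the cells B-lymphocytes. Of 15 B cell markers, 4 could be found by symbol among the listed genes. BLNK, TNFRSF13C and BACH2 were higher at ED19, while the kinase BLK was lower, with a mean RPKM of 13.3 at ED19 and 22.98 at ED16. BLNK, the adaptor of the B cell receptor, averaged 279.7 ± 41.4 RPKM in ED19 libraries and 110.9 ± 11.5 RPKM in ED16 libraries (SD, n = 3 each).

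Counts on genes summed to 27087661 to 32961602 per ED19 library and 30056824 to 34614652 per ED16 library, and the intervals and the floor of 3 counts used below cover counting error only. Levels are given as RPKM, reads per length of the gene model and per size of the library, which allows levels of different genes to be compared. Differences are log2 fold changes of counts, ED19 over ED16, with their standard error (SE) from edgeR's quasi-likelihood model. Of 13923 genes tested in that model, 66.4% were called at an adjusted p of 0.05, 30.8% as higher at ED19 and 35.6% as lower at ED19, and in 71.5% the CPM (counts scaled to the normalized library size) of the stages did not overlap. Symbols exist for listed genes alone, so a family gene that was not listed was not analysed here, and absence of a channel from this text says nothing about its expression. The study's notes give a higher RNA integrity and a lower G and C content of the reads at ED19.

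At ED19, 30 of the 111 members were higher and 81 were lower than at ED16. The share that was lower was 73.0%, against 57.5% of all listed genes with a symbol. Counts sufficed for a fit of 90 members, and 89 of them were called, 28 as higher and 61 as lower. With the members chosen on this contrast, that share cannot be read against the 66.4% of all genes. The stages did not overlap in 109 of 111 members, which the choice of members fixes likewise beside the 71.5% of all genes. TRPC1 and CLCN6 were the 2 exceptions. The median log2 fold change of the fitted members was -2.11, against -0.88 for all listed genes with a symbol and -0.05 for all genes tested, and it was the same with 4 members at 0 set to their bound. In pooled bursal cells, fewer cells of a type and less RNA per cell cannot be told apart, and this holds for every difference below.

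The members that were higher and those that were lower stood at different levels. The median RPKM of the 30 higher members was 8.76 at ED19, against 3.71 at ED16, and 26 genes exceeded an RPKM of 1 at ED19. That of the 81 lower members was 0.024 at ED19, against 0.428 at ED16, and 10 of them exceeded an RPKM of 1 at ED19, against 23 at ED16. In 17 of the 81 no read was counted in any ED19 library. Over all members the median RPKM of the 6 libraries was 0.380, against 6.85 for listed genes with a symbol, and 43 members had fewer than 50 counts in every library. Those 43 were measured from few reads, and their folds have wide errors.

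**Figure D1:**
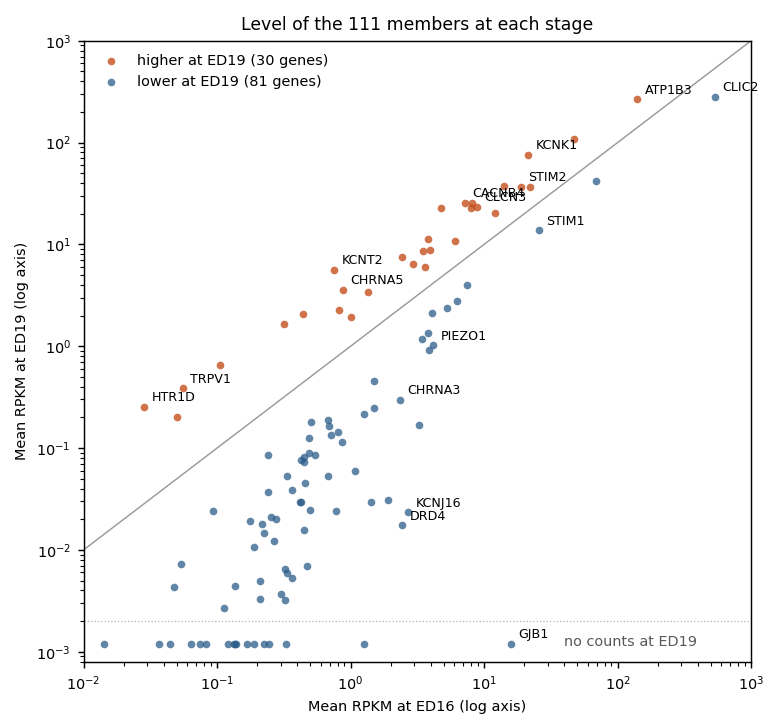
Mean RPKM of each of the 111 members at ED19 (vertical, log axis) against ED16 (horizontal, log axis), with the line of equal level and the 17 members without counts at ED19 drawn below the dotted line. The 30 members higher at ED19 (orange) lie mostly above an RPKM of 1, while most of the 81 lower members (blue) lie below 1 at both stages.

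The change also differed by class of protein. Of the 25 potassium channel genes, 8 were higher at ED19, and of the 8 TRP and PIEZO genes 5 were. None of the 9 aquaporin and connexin genes was higher, and 1 of the 15 transmitter-gated channel genes was. Among the pumps 3 of 5 were higher, and among the purinergic receptors 3 of 9. These are counts within a selected list, and the classes were not tested against each other. The smallest changes among fitted members were log2 0.66 for TRPC1, 0.66 for TRPC4AP and 0.71 for P2RX4. The choice of members set no minimum fold, so a small change does not make a member a borderline one. Genes that the authors did not list have no symbol and were not analysed here.

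**Figure D2:**
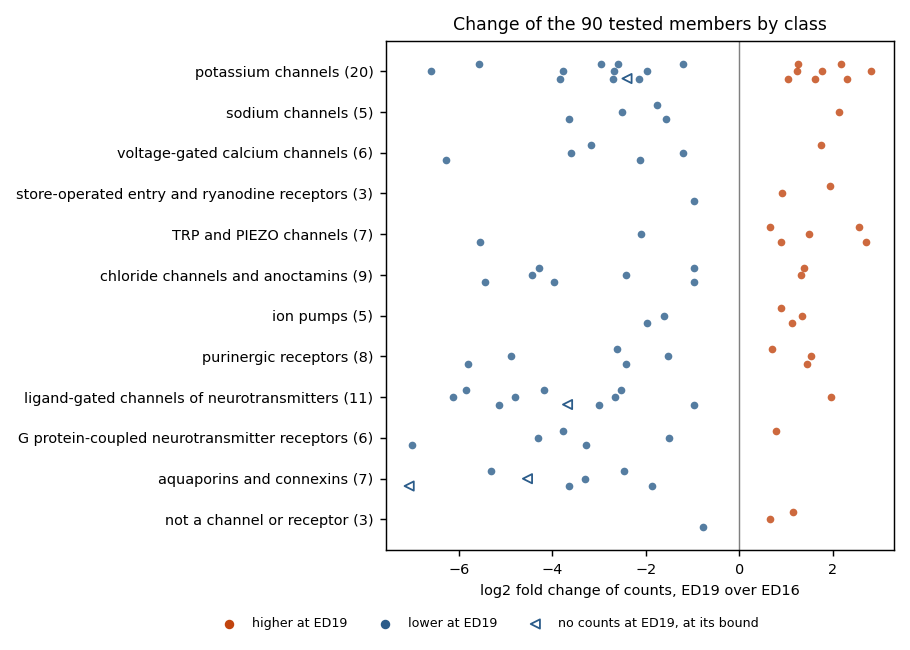
log2 fold change of counts, ED19 over ED16 (horizontal), of the 90 fitted members by class, with the number fitted in parentheses. Orange points were higher and blue points lower at ED19, and the open triangles mark 4 members without counts at ED19, drawn at the bound that a floor of 3 counts in each library gives.

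Among the potassium channel members, KCNK1 had the highest mean RPKM at both stages. It encodes a leak channel of the tandem-pore family that helps to set the resting potential. KCNK1 had 74.7, 81.4 and 71.2 RPKM in the ED19 libraries (in the order of their numbers, here and below), against 18.9, 20.9 and 24.2 RPKM in the ED16 libraries. The log2 fold change was 1.78 (SE 0.16, n = 3 each), and the lowest ED19 library was well above the highest ED16 library. KCNJ15, an inward rectifier, had 26.5, 26.8 and 23.9 RPKM at ED19, against 8.82, 8.46 and 6.99 RPKM at ED16, a log2 fold change of 1.62 (SE 0.15). Both genes were about as high in ED19_6 as in the other ED19 libraries, unlike the higher potassium channel genes that follow.

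KCNA2, a delayed rectifier of the Shaker family, had 33.1, 28.2 and 7.75 RPKM at ED19, against 5.20, 5.77 and 3.42 RPKM at ED16 (log2 fold change 2.18, SE 0.44). ED19_6 lay just above the ED16 libraries and the other ED19 libraries far above them. KCNT2, a channel opened by intracellular sodium, had the largest log2 fold change of the higher members that could be fitted, 2.83 (SE 0.31). Its RPKM was 6.86, 7.23 and 2.83 at ED19, against 0.753, 0.758 and 0.746 at ED16, again with ED19_6 between the stages. KCNH1, of the ether-a-go-go family, reached 1.65, 2.55 and 0.801 RPKM at ED19, against 0.259, 0.309 and 0.387 RPKM at ED16 (log2 fold change 2.31, SE 0.42). KCNQ1, the pore of the slow delayed rectifier of heart, averaged 8.65 ± 2.87 RPKM at ED19 and 3.51 ± 0.13 RPKM at ED16 (SD, n = 3 each), and its relative KCNQ5, which carries the M-current of neurons, averaged 6.37 ± 1.74 RPKM at ED19 and 2.96 ± 0.62 RPKM at ED16.

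The other 17 potassium channel genes were lower at ED19, and 4 of them had no counts there. KCNJ16, an inward rectifier known from kidney tubules, had 3, 0 and 0 counts at ED19, against 190, 93 and 58 counts at ED16. The ratio of ED16 to ED19 was 110, with an exact 95% interval of 37.3 to 535 that covers counting error only, and ED16_1 was the highest library. All 3 ED19 counts came from ED19_4, without which KCNJ16 was at least 32.2-fold lower at ED19, and the ratio was 73.1 without ED19_5. KCNK5, an alkali-activated tandem-pore channel with a part in volume regulation, had 10, 6 and 1 counts at ED19, against 84, 81 and 84 counts at ED16, a log2 fold change of -3.84 (SE 0.48). KCNH2, which repolarizes heart muscle, averaged 0.924 ± 0.463 RPKM at ED19 and 3.88 ± 0.31 RPKM at ED16, and KCNK15 averaged 2.37 ± 0.15 RPKM at ED19 and 5.27 ± 0.22 RPKM at ED16. Those 2 were the only lower potassium channel genes above an RPKM of 2 at ED16 apart from KCNJ16. The lower genes also included KCNAB1, KCNMB4, KCNE3, KCNIP1 and KCNIP4, which encode accessory subunits and not pores.

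Of the voltage-gated sodium channel genes, SCN8A was higher at ED19. SCN8A, which carries action potentials along axons and is also present in macrophages, had 2.76, 2.50 and 0.936 RPKM at ED19, against 0.371, 0.502 and 0.456 RPKM at ED16 (log2 fold change 2.14, SE 0.36). SCN9A, the beta subunits SCN2B and SCN3B and SCNN1B were lower. SCNN1B, a subunit of the epithelial sodium channel, had 33, 36 and 18 counts at ED19, against 90, 131 and 81 counts at ED16, a log2 fold change of -1.76 (SE 0.34).

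Among the voltage-gated calcium channel members the abundant gene encoded a subunit that does not form the pore. CACNB4, a cytoplasmic beta subunit that brings the pore subunit to the membrane, had 31.7, 34.2 and 10.9 RPKM at ED19, against 6.41, 8.34 and 6.83 RPKM at ED16 (log2 fold change 1.75, SE 0.35). Its relative CACNB1 went the other way, with 3.64, 2.55 and 2.19 RPKM at ED19, against 6.5, 7.05 and 5.15 RPKM at ED16 (log2 fold change -1.21, SE 0.24). CACNB4 stood above CACNB1 in every ED19 library, while their ranges overlapped at ED16. The pore subunits among the members were all lower at ED19 and all rare. CACNA1E, the R-type pore, had 0, 3 and 0 counts at ED19, against 132, 77 and 66 counts at ED16, a ratio of ED16 to ED19 of 88.6 (exact 95% interval 29.99 to 432). The ratio was 53.8 without ED19_4, and without ED19_5, which held all its ED19 counts, CACNA1E was at least 28.1-fold lower. CACNA1C and CACNA1I had no counts at ED19 and at most 10 counts in an ED16 library.

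The calcium sensors of store-operated entry moved in opposite directions. STIM2, which responds to small falls of the calcium store, had 43.4, 38.2 and 28.9 RPKM at ED19, against 15.1, 19.0 and 22.5 RPKM at ED16 (log2 fold change 0.90, SE 0.19). STIM1, the main sensor after antigen receptor stimulation, had 15.4, 14.2 and 11.7 RPKM at ED19, against 26.6, 27.6 and 23.4 RPKM at ED16 (log2 fold change -0.97, SE 0.14). STIM2 was above STIM1 in every ED19 library and below it in every ED16 library. No gene with an ORAI symbol, the pore that the sensors open, was among the listed genes. RYR3, a calcium release channel of the endoplasmic reticulum, was low at both stages, with 120, 93 and 55 counts at ED19, against 20, 31 and 19 counts at ED16 (log2 fold change 1.94, SE 0.35).

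TRPM7, a channel fused to a protein kinase that passes magnesium and calcium, was the most abundant TRP gene among the members. It had 12.6, 13.4 and 7.94 RPKM at ED19, against 3.33, 4.55 and 3.59 RPKM at ED16 (log2 fold change 1.5, SE 0.19), with no overlap. TRPC1, a cation channel linked to store-operated entry, had 7.40, 6.73 and 3.67 RPKM at ED19, against 3.28, 4.04 and 3.46 RPKM at ED16, so that ED19_6 lay within the ED16 range. TRPC1 lost its call in most of the alternatives tried. The heat receptors TRPV1 and TRPV3 were rare but higher at ED19. TRPV1 had 36, 43 and 14 counts at ED19, against 4, 9 and 1 counts at ED16 (log2 fold change 2.72, SE 0.64, and 3.62 without ED16_2), and TRPV3 had 61, 55 and 25 counts at ED19, against 9, 11 and 4 counts at ED16 (log2 fold change 2.56, SE 0.45). TRPM5, a calcium-activated channel of taste cells, had 242, 184 and 186 counts at ED19, against 64, 104 and 166 counts at ED16, and it was the fitted member that edgeR did not call.

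The lower members of the same class were TRPM2, TRPM6 and PIEZO1. PIEZO1, a channel opened by membrane stretch that is present in red cells, vessels and many epithelia, had 1.27, 1.26 and 0.523 RPKM at ED19, against 4.70, 4.51 and 3.25 RPKM at ED16 (log2 fold change -2.10, SE 0.30). TRPM2, opened by ADP-ribose under oxidative stress, had 12, 3 and 0 counts at ED19, against 274, 343 and 104 counts at ED16. The log2 fold change was -5.55 (SE 0.76) and -7.03 without ED19_4, which held most of its ED19 counts.

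The member with the highest mean RPKM at both stages was CLIC2, a chloride intracellular channel protein that is also a soluble glutathione transferase-like protein and can inhibit ryanodine receptors. It had 287, 286 and 275 RPKM at ED19, against 551, 513 and 552 RPKM at ED16, a log2 fold change of -0.98 (SE 0.16), and the libraries of a stage lay close together. In ED19_6 the pump subunit ATP1B3 stood above it. CLIC2 made up 18.5% to 23.5% of the summed CPM of all members at ED19 and 42.5% to 47.0% at ED16. All members together summed to 2553 to 2872 CPM in the ED19 libraries, against 2389 to 2457 CPM in the ED16 libraries. Without the 3 genes that matched by name alone, the stages overlapped. The sums were then 1951 to 2176 CPM in the ED19 libraries and 1898 to 2013 CPM in the ED16 libraries. CLIC4, of the same family, had 4.35, 4.33 and 3.22 RPKM at ED19, against 8.69, 7.57 and 6.14 RPKM at ED16 (log2 fold change -0.97, SE 0.19).

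The chloride-proton exchangers of endosomes were the higher members of that class. CLCN3 had 29.5, 27.1 and 14 RPKM at ED19, against 8.16, 10.1 and 8.44 RPKM at ED16 (log2 fold change 1.33, SE 0.22). CLCN6 had 244, 230 and 65 counts at ED19, against 76, 83 and 46 counts at ED16, and ED19_6 overlapped the ED16 libraries. The anoctamins, calcium-activated chloride channels and lipid scramblases, were lower. ANO6, the scramblase that exposes phosphatidylserine on activated platelets, had 4, 5 and 0 counts at ED19, against 113, 63 and 35 counts at ED16 (log2 fold change -4.44, SE 0.70). ANO1 and ANO9 were lower as well, at no more than 4 counts in an ED19 library.

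**Figure D3:**
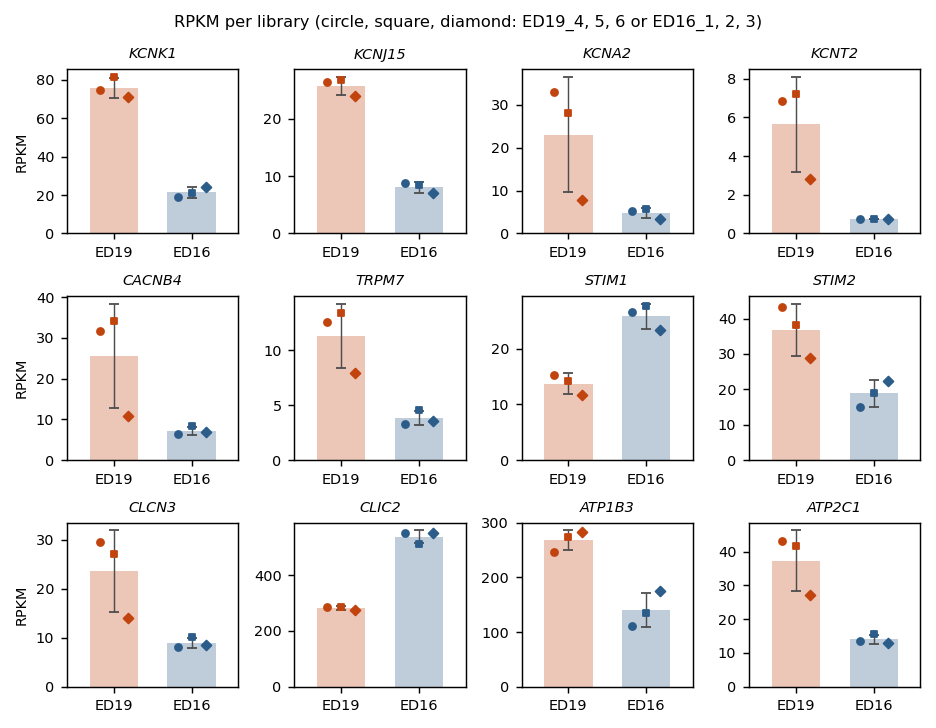
RPKM of 12 leading members per library, with ED19 (orange) left of ED16 (blue). Points are libraries, bars are means and whiskers are 1 SD (n = 3). KCNA2, KCNT2 and CACNB4 show the gap between ED19_6 (diamond) and the other ED19 libraries, which KCNK1, KCNJ15 and CLIC2 do not show, and STIM1 and STIM2 run in opposite directions.

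Ion pumps were among the abundant members. ATP1B3, a beta subunit of the sodium-potassium pump that takes the alpha subunit to the membrane, had 247, 274 and 282 RPKM at ED19, against 111, 136 and 175 RPKM at ED16 (log2 fold change 0.89, SE 0.20). ATP2C1, which loads the Golgi with calcium and manganese, had 43.2, 41.8 and 27.1 RPKM at ED19, against 13.4, 15.6 and 13 RPKM at ED16 (log2 fold change 1.35, SE 0.16). The pumps that expel calcium through the plasma membrane differed in direction. ATP2B1 had 9.69, 9.85 and 7.09 RPKM at ED19, against 3.57, 4.37 and 3.81 RPKM at ED16 (log2 fold change 1.12, SE 0.15). ATP2B4 had 1.42, 1.44 and 0.628 RPKM at ED19, against 3.17, 4.18 and 2.91 RPKM at ED16 (log2 fold change -1.62, SE 0.29), and ATP2B2 was lower too. ATP2B1 was therefore far above ATP2B4 at ED19, while at ED16 their ranges overlapped.

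Of the ATP-gated P2X channels, P2RX4, P2RX5 and P2RX7 were higher at ED19. P2RX7, which responds to high ATP and is known for membrane permeabilization in leukocytes, had 32.4, 23.8 and 12.4 RPKM at ED19, against 8.97, 10.03 and 4.99 RPKM at ED16 (log2 fold change 1.44, SE 0.33). P2RX4, found in endosomes and lysosomes as well as at the surface, had 20.9, 18.4 and 21.4 RPKM at ED19, against 12.7, 12.9 and 10.6 RPKM at ED16 (log2 fold change 0.71, SE 0.17). P2RX5 had 11, 7.58 and 3.77 RPKM at ED19, against 2.30, 3.17 and 1.83 RPKM at ED16 (log2 fold change 1.54, SE 0.33). The 3 higher genes were the only P2X members above an RPKM of 2 at either stage. P2RX2, P2RX3 and P2RX6, the first 2 of which are best known from sensory neurons, were lower and had at most 14 counts in an ED19 library.

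The nucleotide receptors coupled to G proteins were lower. P2RY13, a receptor for ADP on blood cells and macrophages, had 1.53, 1.48 and 1.07 RPKM at ED19, against 4.09, 4.74 and 2.49 RPKM at ED16 (log2 fold change -1.52, SE 0.31). P2RY4, a receptor for UTP in epithelia, had 4, 1 and 0 counts at ED19, against 181, 84 and 47 counts at ED16. Its log2 fold change was -5.80 (SE 0.77) and -7.18 without ED19_4. P2RY2 had 0, 1 and 1 counts at ED19, against 22, 33 and 18 counts at ED16.

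Transmitter-gated channel genes were rare at both stages. The 15 genes summed to 7.87 to 10.3 CPM in the ED19 libraries, against 23.6 to 32.5 CPM in the ED16 libraries, and 5 of them had no counts at ED19. The higher gene was CHRNA5, an accessory subunit of nicotinic acetylcholine receptors, with 4.67, 4.03 and 2.09 RPKM at ED19, against 1.11, 0.969 and 0.565 RPKM at ED16 (log2 fold change 1.96, SE 0.36). CHRNA3 and CHRNB4, the subunits that build the nicotinic receptor of autonomic ganglia, were lower. CHRNA3 had 12, 10 and 17 counts at ED19, against 135, 113 and 90 counts at ED16 (log2 fold change -3.01, SE 0.37). CHRNB4 had 1, 0 and 0 counts at ED19, against 49, 23 and 27 counts at ED16, a ratio of ED16 to ED19 of 95.6 (exact 95% interval 16.8 to 3815). The ratio was 63.7 without ED19_5, and without ED19_4, which held its 1 ED19 count, CHRNB4 was at least 9.44-fold lower. CHRNA7, which forms a calcium-permeable receptor by itself, had 29, 26 and 13 counts at ED19, against 158, 118 and 128 counts at ED16 (log2 fold change -2.53, SE 0.30). CHRNB2 had 2.37, 1.80 and 2.26 RPKM at ED19, against 4.38, 3.69 and 4.12 RPKM at ED16 (log2 fold change -0.97, SE 0.25), so that it and CHRNA5 were the only transmitter-gated channel genes above an RPKM of 1 at ED19.

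All glutamate, GABA and glycine receptor channels among the members were lower at ED19. GRIN3A, a glycine-binding subunit of NMDA receptors, had 4, 1 and 2 counts at ED19, against 102, 66 and 45 counts at ED16 (log2 fold change -4.79, SE 0.52). GRIK1, a kainate receptor subunit, had 1, 1 and 0 counts at ED19, against 54, 45 and 42 counts at ED16. GABRA3, an alpha subunit of the GABA-A receptor, had no counts at ED19, against 53, 44 and 26 counts at ED16, and was at least 12.8-fold lower with a floor of 3 counts in each library. GRIN1, the subunit that every NMDA receptor needs, had no counts at ED19 and 19, 7 and 5 counts at ED16.

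CHRM4 was the abundant G protein-coupled transmitter receptor among the members. This muscarinic acetylcholine receptor, which lowers cyclic AMP, had 12.2, 12.7 and 7.72 RPKM at ED19, against 5.41, 6.37 and 6.45 RPKM at ED16 (log2 fold change 0.78, SE 0.21). It was thus the highest-standing acetylcholine receptor gene among the members at both stages, in RPKM. DRD4, a dopamine receptor, had 3, 2 and 0 counts at ED19, against 234, 337 and 139 counts at ED16, a log2 fold change of -7.01 (SE 0.62). HTR1D, a serotonin receptor, was the only other higher gene of this class, with 10, 11 and 5 counts at ED19, against 0, 1 and 2 counts at ED16, too few for the fit. The ratio of ED19 to ED16 was 8.97 (exact 95% interval 2.75 to 46.3), 5.74 without ED16_1 and 18.4 without ED16_3. The metabotropic glutamate receptors GRM2, GRM4, GRM7 and GRM8, the serotonin receptors HTR1B and HTR7, the adrenergic receptor ADRA2A and the dopamine receptor DRD5 were lower.

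Aquaporins pass water and connexins form gap junctions between adjoining cells, and every member of these families was lower at ED19. The 9 genes summed to 0.460 to 0.868 CPM in the ED19 libraries, against 13.4 to 33.7 CPM in the ED16 libraries. GJB1, a connexin of liver, kidney and myelinating glia, made up most of the ED16 sum. GJB1 had no counts at ED19, against 810, 290 and 218 counts at ED16, and was at least 134-fold lower, or at least 83.4-fold without ED16_1. GJB6 had no counts at ED19 either, against 106, 71 and 47 counts at ED16, and was at least 23.2-fold lower. GJA1, the connexin of heart and many mesenchymal cells, had 1, 0 and 0 counts at ED19, against 31, 9 and 10 counts at ED16. AQP1, the water channel of red cells, vessels and kidney, had 1, 0 and 0 counts at ED19, against 15, 17 and 23 counts at ED16, a ratio of ED16 to ED19 of 53.1 (exact 95% interval 9.15 to 2136). The ratio was 35.4 without ED19_5, and without ED19_4, which held its 1 ED19 count, AQP1 was at least 5.39-fold lower. AQP3, which also passes glycerol, had 7, 5 and 2 counts at ED19, against 59, 58 and 29 counts at ED16 (log2 fold change -3.31, SE 0.47).

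The 3 genes that matched the families by name alone were all abundant. ADRBK1 and ADRBK2 encode kinases that switch off G protein-coupled receptors and not adrenergic receptors, and they moved in opposite directions. ADRBK2 had 128, 115 and 83.5 RPKM at ED19, against 48.4, 52.0 and 41.3 RPKM at ED16 (log2 fold change 1.14, SE 0.16). ADRBK1 had 44.0, 39.3 and 41.3 RPKM at ED19, against 74.8, 71.1 and 62.6 RPKM at ED16 (log2 fold change -0.79, SE 0.14). ADRBK2 stood above ADRBK1 in every ED19 library and below it in every ED16 library, as STIM2 did to STIM1. TRPC4AP, an adaptor protein, had 41.6, 40.5 and 27.7 RPKM at ED19, against 20.6, 23.8 and 22.0 RPKM at ED16 (log2 fold change 0.66, SE 0.15).

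Members that are neighbours in the genome did not always move together. By the order of RefSeq genes in the GRCg7b assembly, in which 109 members were found, 6 pairs of members are adjacent, and 4 of the 6 moved in the same direction. CHRNB4, CHRNA3 and CHRNA5 lie next to each other, and CHRNA5 was higher at ED19 while both others were lower. KCNK17, a tandem-pore channel, averaged 3.44 ± 1.68 RPKM at ED19 and 1.36 ± 0.33 RPKM at ED16, whereas its neighbour KCNK5 was lower. KCNK17 lost its call without ED16_3 and without ED19_4. TRPV1 with TRPV3, P2RX7 with P2RX4, and KCNQ1 with TRPM5 were higher in both members. The library kit does not keep strand, so reads where adjacent genes overlap could be counted for either.

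**Figure D4:**
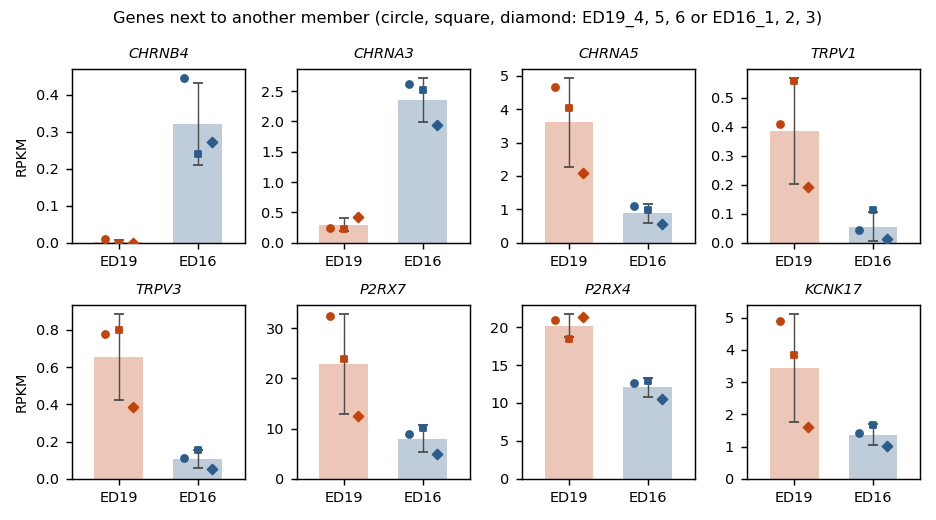
RPKM per library of genes adjacent to another member, with ED19 (orange) left of ED16 (blue). Points are libraries, bars are means and whiskers are 1 SD (n = 3), cut at 0. CHRNA5 is higher at ED19 while its neighbours CHRNA3 and CHRNB4 are lower, and TRPV1, TRPV3, P2RX7 and P2RX4 are higher at ED19.

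Within ED19, the library ED19_6 stood apart. It had the fewest counts on genes, and 14454 genes with a count, against 15349 in ED19_4 and 15177 in ED19_5. By CPM it was the lowest ED19 library in 25 of the 30 higher members, or 83.3%, against 62.1% of all genes called higher at ED19. The median ratio of ED19_6 to the mean of the other ED19 libraries was 0.614 over the 30 members, against 0.852 over all genes called higher. A low ratio was not particular to the higher members. Its median was 0.478 over the lower members for which it could be formed, most of them near 0 at ED19. Of the 81 lower members, ED19_6 was the lowest ED19 library in 29. The ratio was 0.294 for KCNA2, 0.385 for CACNB4, 0.414 for SCN8A and 0.466 for KCNT2. The 5 higher members in which ED19_6 was not the lowest were ATP1B3, KCNJ15, KCNK1, P2RX4 and TRPM5. Without ED19_6, 100 members could be fitted in place of 90. Of these, 28 were called higher and 71 lower, and no member lost its call. Calls over all genes rose as well, to 10949 of 14424 genes tested, from 9240 of 13923 with all libraries. Nothing is read from the rise in the members.

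Within ED16, the library ED16_1 was the highest in 52 of the 81 lower members, or 64.2%, against 59.0% of all genes called lower at ED19. Of the 75 members with at least 30 counts in ED16_1, 7 were over 2-fold above the mean of the other ED16 libraries there. These were ANO6, AQP11, GJA1, GJB1, GRIN3B, KCNJ16 and P2RY4. All 7 were lower at ED19, but so were 81 of the 111 members. A high ED16 library also raises the ED16 mean, so nothing is read from their direction. The ratio of ED16_1 to the mean of the other ED16 libraries was 2.83 for GJB1, 2.24 for KCNJ16 and 2.46 for P2RY4. The summed CPM of 7 kidney markers showed a ratio of 2.69 in the same library, and that of 10 epithelial markers a ratio of 1.82. It was 1.47 for 6 glia and neural crest markers and 1.27 for 14 neuron markers. In the other marker lists it lay between 0.884 (B cell) and 1.26 (smooth and striated muscle).

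Markers of most other cell types moved with the lower members. Of 82 such markers that have a symbol, 72 could be fitted, and 68 were called lower and 3 higher at ED19, with a median log2 fold change of -4.29. Of all genes tested 35.6% were called lower and 30.8% higher. Since markers too have symbols only where listed, the marker counts are not independent of the listing, and nothing is read from the shares. The 14 neuron markers summed to 41.2 to 46.8 CPM at ED19, against 162 to 210 CPM at ED16, and none of the 14 was at 0 in all ED19 libraries. Much of what was left at ED19 was MAPT, while GAP43, a protein of growing axons, had 0, 1 and 0 counts at ED19, against 453, 262 and 244 counts at ED16. The 6 glia and neural crest markers summed to 3.75 to 7.27 CPM at ED19, against 39.4 to 68.4 CPM at ED16. The 7 kidney markers summed to 2.37 to 3.62 CPM at ED19, against 152 to 445 CPM at ED16, with AGXT at 0 at ED19, and the 10 epithelial markers to 9.96 to 12.7 CPM at ED19, against 193 to 410 CPM at ED16. The 7 markers of red cells and thrombocytes summed to 75.8 to 127 CPM at ED19, against 1988 to 2844 CPM at ED16. All 10 T cell markers were lower, and they summed to 131 to 232 CPM at ED19, against 351 to 489 CPM at ED16. The 6 granulocyte and macrophage markers went the other way in sum, with 388 to 441 CPM at ED19, against 309 to 329 CPM at ED16, although 5 of them were lower and 1 higher, and the endothelium sums overlapped, with 9.67 to 27.8 CPM at ED19 and 13.5 to 18.1 CPM at ED16. The 4 B cell markers summed to 639 to 809 CPM at ED19, against 314 to 363 CPM at ED16, a sum carried by BLNK, while BLK was lower (log2 fold change -0.84, SE 0.15). The part of these cell types in the lower levels of channel genes was not tested.

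**Figure D5:**
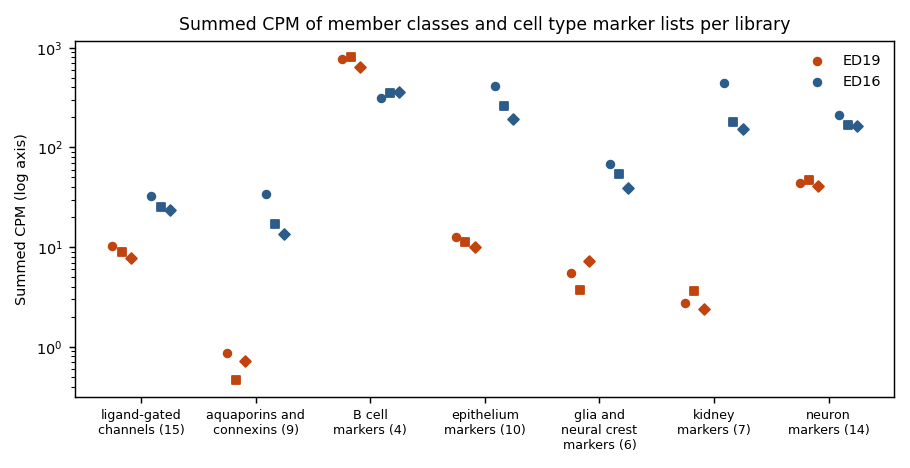
Summed CPM (log axis) per library of 2 member classes and of 5 marker lists, with the number of genes in parentheses and ED19 (orange) left of ED16 (blue). Circle, square and diamond are ED19_4, ED19_5 and ED19_6, or ED16_1, ED16_2 and ED16_3. The transmitter-gated channels, the aquaporins and connexins and the markers of neurons, glia, kidney and epithelium are lower in every ED19 library, while the summed B cell markers are higher, although BLK, 1 of the 4, is lower.

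Most listed genes of the route from the antigen receptor to calcium release, which acts just before the STIM sensors, were higher at ED19. Of 40 genes on that list, 23 have a symbol, 22 could be fitted, 19 were higher and 3 lower at ED19, and the median log2 fold change was 1.14. Of all genes tested 30.8% were called higher and 35.6% lower. Like the members, these genes have symbols because they were listed as differing, so nothing is read from the shares. The genes of the list without a symbol were not seen. The kinase LYN, with a mean RPKM of 443 at ED19 and 144 at ED16, and PLCG2, the phospholipase that makes inositol trisphosphate, with 86.6 RPKM at ED19 and 15.2 RPKM at ED16, were higher in every ED19 library. The kinase SYK had a log2 fold change of 1.99 (SE 0.17) and PLCG2 one of 2.44 (SE 0.21). PLCG1, a related phospholipase, was lower, with 103, 75 and 71 counts at ED19, against 621, 543 and 331 counts at ED16, and CAMK1D and CAMK1 were the other lower genes. The inositol trisphosphate receptors ITPR1, ITPR2 and ITPR3, through which the store empties, had log2 fold changes of 1.26 (SE 0.26), 1.64 (SE 0.30) and 1.19 (SE 0.23). The transcription factor NFATC3, a target of calcineurin, had 14185, 14574 and 1920 counts at ED19, against 1958, 2484 and 2278 counts at ED16, so that ED19_6 lay near the ED16 libraries and the other ED19 libraries far above them. The stages therefore overlapped in CPM for NFATC3, although it was called higher.

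Channel genes outside the families that chose the members were mixed in direction. Of 66 on that list, 28 have a symbol, 27 could be fitted, 15 were higher and 11 lower at ED19, and TMEM63B was not called. Of all genes tested 30.8% were called higher and 35.6% lower, but these genes too have symbols because they were listed as differing, so nothing is read from the shares. The median log2 fold change was 0.76, against -2.11 for the members, but it depends on how the genes were chosen. The 21 fitted genes found by a channel or pump domain, described below, had a median of -1.66. With at least 10 counts in every library, the median was 0.78 for the members and 1.06 for this list. On this list 3 genes, ITPR1 to ITPR3, are also on the antigen receptor list. HVCN1, the voltage-gated proton channel of B cells and phagocytes, had 58009, 46598 and 23443 counts at ED19, against 11841, 10843 and 9350 counts at ED16 (log2 fold change 2.01, SE 0.23). LRRC8B and LRRC8D, subunits of the volume-regulated anion channel, had log2 fold changes of 2.20 (SE 0.23) and 1.53 (SE 0.17), and LRRC8D averaged 147 RPKM at ED19 and 49.6 RPKM at ED16. ASIC2, an acid-sensing channel of neurons, had 25, 6 and 6 counts at ED19, against 112, 77 and 106 counts at ED16 (log2 fold change -2.98, SE 0.48), and MCOLN3, a channel of lysosomes, had at most 5 counts in an ED19 library.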

How the data were processed

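Lymphocytes from pooled embryonic bursas gave 3 libraries at ED19 and 3 at ED16. Per the submitters' processing notes, reads were aligned to galGal4 with TopHat2 2.0.12 after CASAVA 1.8, and counted with HTSeq 0.601. The strand setting of the counting is not given in the sources used here. The authors deposited raw counts per gene and the RPKM they computed from them. The authors also deposited a table of called genes with symbols, a size-factor-scaled mean signal per stage, the log2 fold change and p-values. The submitters' notes give DESeq 1.10.1 for the calls, while the paper names a later version. The comparison columns of that table were not used, and only its gene names, domain descriptions and membership were. The number of per-sample columns belonging to no sample was 0.

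Counts were fitted with edgeR 4.0.16 in R 4.3.3 (filterByExpr, TMM, quasi-likelihood F test, Benjamini-Hochberg over 13923 genes, threshold 0.05). The fit was also run on simulated counts in which few genes changed, in both directions. Far more genes were called in the real data, so that run does not vouch for the fit here. SE is the size of the log2 fold change divided by the square root of F. CPM used TMM library sizes. The 3 libraries of a stage are separate pools. Members and all gene lists were chosen with earlier results of these data known, and members were selected on this contrast, so no p is given for them. Named genes were, per class, the 2 with the highest mean RPKM, per direction the 8 with the largest change at a mean log2 CPM of at least 0, the 3 with the smallest change, and members known from lymphocytes or gene clusters. In the other lists they were the 2 largest changes per direction and the 2 with the highest mean RPKM. Other genes named were chosen after their values were seen. A stage with no counts was set to 3 counts per library for a lower bound, and ratios to a stage with 1 to 3 counts in all have exact 95% intervals. Alternatives were upper-quartile scaling, DESeq2 size factors, all genes unfiltered, a minimum of 10 counts per library, a loess length correction (span 0.5), DESeq2 1.42.0, limma 3.58.1 on log2(RPKM + 1) and log2(RPKM + 0.1), a minimum fold change of 2, leaving out each library, and library totals in place of TMM sizes. Python 3.11.15, pandas 2.3.3, numpy 2.4.6, scipy 1.17.1 and matplotlib 3.10.9 were used. Gene order came from RefSeq (GRCg7b) by symbol. No sequence or coordinate is given, since no genome of the files' build was used here, and family genes that were not listed could not be named and were not analysed here.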

Additional observations from a re-analysis of the deposited data

How the results depend on the processing

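No member that could be fitted changed direction in the 15 alternatives run on members (library totals were tried on sums alone, and the filter on counts left 43 members). Leaving out 1 library gave 26 to 28 members called higher and 59 to 71 called lower at ED19. The number of members fitted then ranged from 92 to 100, and calls over all genes from 7851 to 10949. With at least 10 counts in every library, 16 members in place of 61 were called lower, and the median log2 fold change of the 43 members left turned to 0.78 from -2.11, because that filter removes genes near 0 at ED19. Over all genes that filter left 11441, of which 7205 were called, 3649 of these as higher at ED19. Nothing is read from the count of members called. The median over all members with a value was -0.38 with limma on log2(RPKM + 1), -1.44 on log2(RPKM + 0.1), -2.67 with DESeq2 and -2.61 without a filter. Under the same filter 6 channels outside the families were called lower in place of 11. The correction for gene length moved the median of all genes by 0.45 and the share of calls that are higher at ED19 to 63.2% from 46.4%. Under it CHRNB2, KCNK15, P2RX6, P2RY13 and SCN2B lost their call, and 7 channels outside the families and 3 mitochondrial calcium genes were called lower, in place of 11 and 5. Upper-quartile scaling moved the median of all genes by -0.21. TRPC1 lost its call under upper-quartile scaling, the count filter, limma, the minimum fold change and 5 of the 6 left-out libraries. Without ED16_1, AQP11, CLCN6, P2RX6, SCN2B and SCN9A also lost it, and of these CLCN6, SCN2B and SCN9A did so without other libraries too. KCNK17 lost it without ED16_3 or ED19_4, and ATP2B2 with limma on log2(RPKM + 1). The minimum fold change of 2 lost 11 members. Leaving out 1 library moved 21 members by over 1.5 times, 14 of them on leaving out ED19_4, most being genes near 0 at ED19. Ratios and bounds without each library were added after seeing the data. No paired analysis was possible because the replicate numbers of the stages are not shared. Counting depth limits the 43 members under 50 counts.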

Other observations

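A further 27 listed genes carry a channel or pump domain in the deposited descriptions but no symbol of the families above, and 11 of them are on the list of channels outside those families. Of the 27, 9 were higher and 18 lower at ED19, and the median log2 fold change of the 21 that could be fitted was -1.66. A pump of the endoplasmic reticulum type, the kind that refills the calcium store, had 8347, 6292 and 3408 counts at ED19, against 4385, 3957 and 3476 counts at ED16, so that ED19_6 lay near the ED16 libraries. An N-type calcium channel pore had no counts at ED19, against 44, 23 and 22 counts at ED16. The gene named P2X1 had 32, 6 and 8 counts at ED19, against 91, 67 and 52 counts at ED16, and ACCN2, an acid-sensing channel, had 2, 0 and 0 counts at ED19, against 46, 27 and 28 counts at ED16. The cyclic nucleotide-gated channel CNGA3 was higher, with 491, 392 and 321 counts at ED19, against 168, 227 and 236 counts at ED16. The calcium channels of endosomes and lysosomes TPCN1 and TPCN2 had log2 fold changes of 1.22 (SE 0.32) and 1.49 (SE 0.37).

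Mitochondria take up calcium that enters through the plasma membrane. A list of 13 genes covered that uptake and also the return of calcium to the cytosol. Of the 13, 9 have a symbol and all 9 were called, 4 as higher and 5 as lower at ED19. Of all genes tested 66.4% were called, and these genes have symbols because they were listed as differing, so that their being called is near fixed. LETM1, an ion exchanger of the inner membrane, had a log2 fold change of 1.84 (SE 0.16) and MICU3 one of 1.74 (SE 0.17). SLC8B1, the sodium-calcium exchanger that returns calcium to the cytosol, had 244, 157 and 104 counts at ED19, against 1478, 962 and 627 counts at ED16. MICU2, a gatekeeper of the uniporter, had a log2 fold change of 1.41 (SE 0.30), and SMDT1, a small subunit of the uniporter, averaged 23.1 RPKM at ED19 and 49.4 RPKM at ED16.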
